A study of Mus musculus with 12 samples.

Results

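The genes described here act in G2 phase and mitosis, the steps in which a cell that has copied its DNA prepares to divide and then divides. The set held 48 genes listed by symbol, of which 47 had a probe set named for that gene alone on the array, out of 18193 genes with such a probe set. Where a gene had several probe sets, the one brightest on average over the 12 arrays was used, and all 47 lay above the filter used for testing (a mean log2 value of at least 5). The cyclin gene Ccnb1, listed in the set, was not analysed here.

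Thymus RNA of mice aged 7 to 8 weeks was hybridized to 12 one-colour Affymetrix arrays, 3 biological replicates for each of 4 genotypes. These were XXsry gonadal males, XX gonadal females, XY-sry gonadal males and XY- gonadal females, named by sex chromosome complement as the labels spell it. In the mouse model known by such names, Sry, the testis-determining gene, is deleted from the Y chromosome and returned as an autosomal transgene. That is background, since the labels used here do not spell out the alleles or the strain. Each group labelled with sry is male and each group without it is female, so the gene Sry and gonadal sex cannot be told apart, and "Sry effect" below stands for both together.

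Entry into mitosis is driven by Cdk1 bound to a B-type or A-type cyclin, and is opened by Cdc25 phosphatases and Polo and Aurora kinases. The transcription factor Foxm1 and the MuvB complex switch on the genes of this program late in the cell cycle, in part through the CHR element and CCAAT boxes of their promoters, the second of which binds NF-Y. In the thymus, most division takes place in immature thymocytes, above all after the pre-T cell receptor has formed, while mature T cells rest.

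Promoter sequences were taken from RefSeq (build GRCm38.p6) for the 39 measured genes that the promoter table held, with 41 windows of 250 bases before to 50 bases after the gene start, since 2 genes had more than 1 window. The CHR element was searched as TTTGAA and its reverse complement TTCAAA, and the CCAAT box as CCAAT and ATTGG, on both strands. A CCAAT match and an ATTGG match can share bases, as at -186 and -183 in Ube2c, and each is then counted as a match. A CHR match lay in 31 of the 41 windows (75.6%), against 17.9% of 32851 promoters of the same length. A CCAAT match lay in 32 windows (78.0%), against 37.4% of all promoters, and both lay in 28 windows (68.3%), against 6.95%. A CHR match starting no farther than 50 bases before the gene start lay in 28 windows (68.3%), against 4.94% of all promoters. A match is a run of letters and does not show binding.

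The 5 windows below run from 120 bases before to 30 bases after the gene start and are shown because Espl1, Spc25 and Melk passed a test described below, and because Cdk1 and Ccnb2 make the kinase and cyclin of mitotic entry. Capitals mark the CHR and CCAAT matches, in either orientation. The Espl1 window lies at chr15:102296173-102296322 on the plus strand. The Spc25 window lies at chr2:69206184-69206333 on the minus strand. The Melk window lies at chr4:44300797-44300946 on the plus strand. The Cdk1 window lies at chr10:69352883-69353032 on the minus strand. The Ccnb2 window lies at chr9:70421525-70421674 on the minus strand. The Melk window held no match. No window of Foxm1 was used here.
Espl1: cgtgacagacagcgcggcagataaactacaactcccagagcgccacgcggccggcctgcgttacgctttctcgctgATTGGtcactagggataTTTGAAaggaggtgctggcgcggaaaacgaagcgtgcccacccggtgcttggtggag
Spc25: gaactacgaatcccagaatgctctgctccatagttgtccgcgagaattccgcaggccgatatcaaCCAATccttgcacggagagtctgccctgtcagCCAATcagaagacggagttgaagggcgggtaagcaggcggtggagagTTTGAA
Melk: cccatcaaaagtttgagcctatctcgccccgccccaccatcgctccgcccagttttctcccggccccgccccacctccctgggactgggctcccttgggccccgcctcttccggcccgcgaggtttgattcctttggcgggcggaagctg
Cdk1: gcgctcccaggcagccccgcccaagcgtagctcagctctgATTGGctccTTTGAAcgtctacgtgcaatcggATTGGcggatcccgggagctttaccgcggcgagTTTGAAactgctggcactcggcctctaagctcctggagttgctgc
Ccnb2: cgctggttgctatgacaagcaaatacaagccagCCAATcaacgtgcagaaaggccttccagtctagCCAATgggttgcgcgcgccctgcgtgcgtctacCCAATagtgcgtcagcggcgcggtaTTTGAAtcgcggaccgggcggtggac

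Positions are counted from the gene start. In Espl1 the CHR match began at position -27, behind a CCAAT box in reverse orientation. Cdk1 had CHR matches beginning at -71 and -15, each behind such a box. In Ccnb2 the match within the printed window began at position 5, behind 3 CCAAT boxes.

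**Figure D1:**
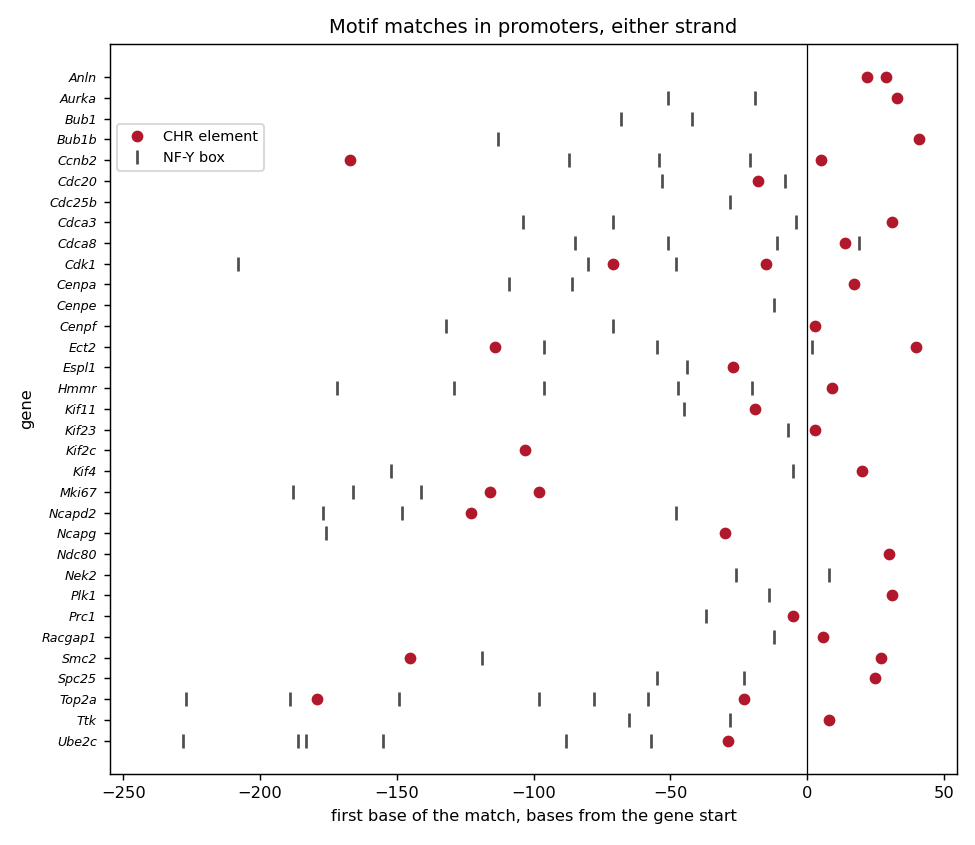
Positions of CHR matches (red points) and NF-Y box matches (dark ticks) on either strand, in bases from the gene start (vertical line), with 1 window per gene; each row is a gene with at least 1 match. Most CHR matches lie near the gene start: 26 genes have one beginning no farther than 50 bases before it.

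The labels were checked first. Xist, the RNA of the inactive X chromosome, had log2 values between 11.59 and 11.63 in XXsry and between 11.10 and 11.55 in XX, against 3.41 to 4.14 in XY-sry and 3.50 to 4.19 in XY-. The probe set of Sry had 6.74 to 6.95 in XXsry, against 5.33 to 5.39 in XX, and 6.84 to 7.20 in XY-sry, against 5.23 to 5.65 in XY-. Thymocyte genes marked the tissue: all 7 measured markers passed the filter, with mean log2 values of 9.82 for Cd4 and 9.43 for Cd3e.

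Most of the mitotic genes had slightly higher values in thymus with Sry than without it, in both complements. Averaged over the complement, 46 of 47 lay above 0 (57.2% of all tested probe sets did), with a median log2 difference of 0.14, a 1.10-fold level, against 0.02 for all tested probe sets. Foxm1, Melk and Espl1 rose past the threshold (limma, Benjamini-Hochberg adjusted p under 0.05 over 17925 probe sets), and none fell (2.61% of all probe sets were called lower). These 3 genes are 6.38% of the set, beside 3.95% of all probe sets tested that were called higher, so the count of calls does not set the mitotic genes far from the array. At an unadjusted p under 0.05, 29 genes were higher (61.7%), against 15.1% of all probe sets, and none was lower, against 9.82%. The quartiles of the 47 differences were 0.11 and 0.16. For none of the genes did all arrays with Sry lie above all arrays without it (2.28% of all probe sets did). Leaving out 1 array changed the number called: it was 1 without XXsry replicate 2, XXsry replicate 3 or XX replicate 3, 5 without XY-sry replicate 1 and 8 without XY- replicate 2. The share of all probe sets called in those fits was 3.24%, 2.91%, 3.73%, 3.79% and 9.73%, in that order, against 6.56% with all 12 arrays, and the median of the mitotic genes stayed between 0.10 and 0.16 whichever array was left out. Genes of a set share the same arrays and are not replicates, and in a whole tissue a change in the number of dividing cells and a change in RNA per cell cannot be told apart.

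**Figure D2:**
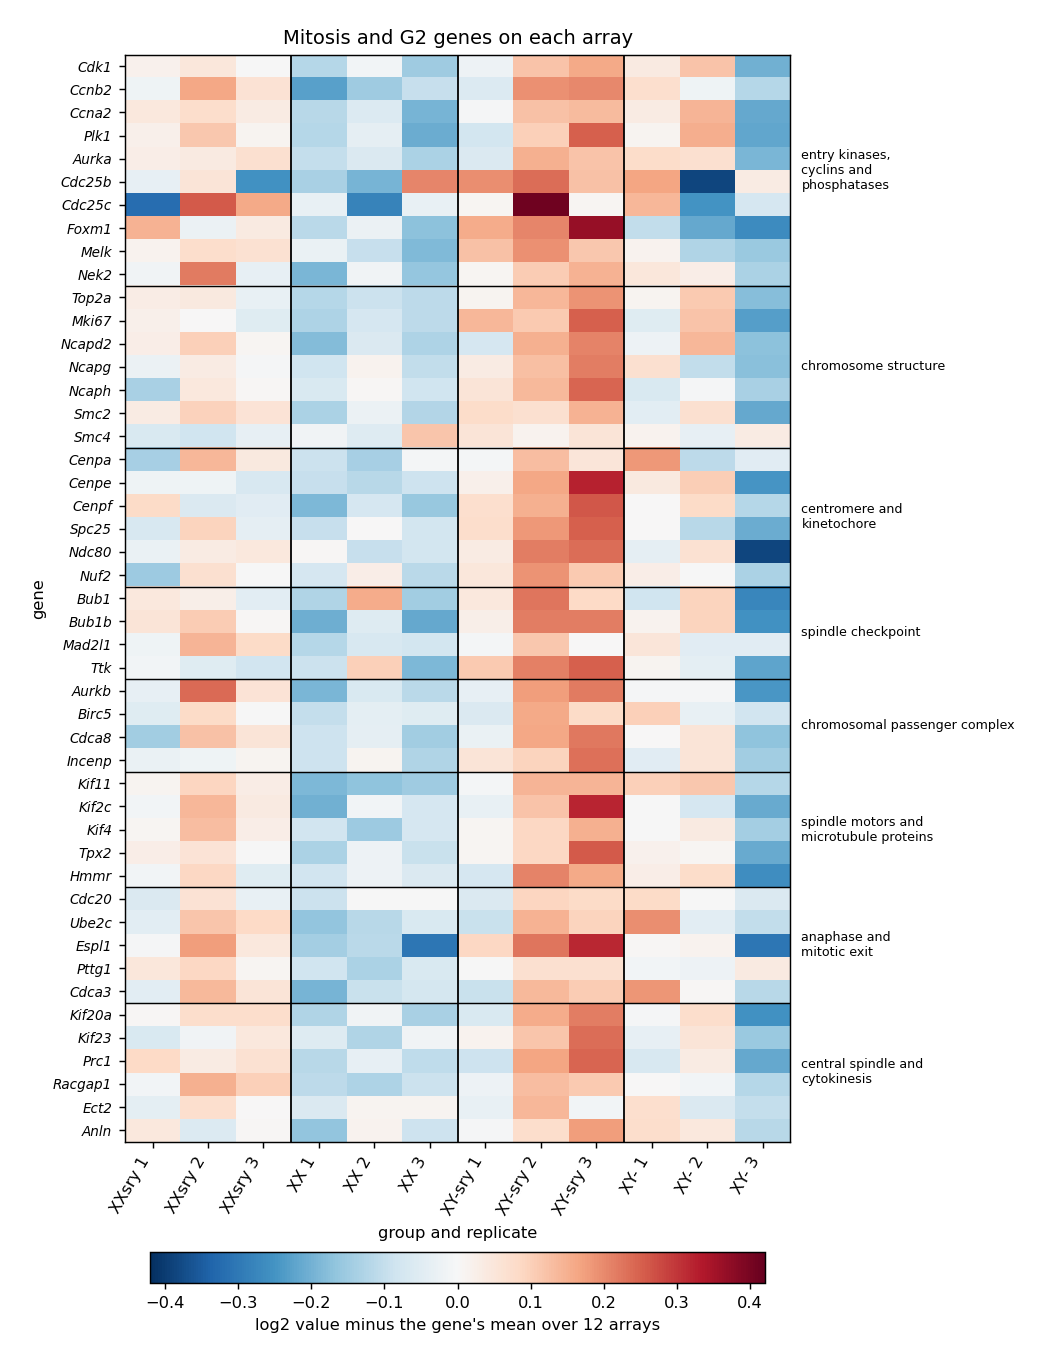
Log2 value of each of the 47 genes (rows, grouped by role) on each of the 12 arrays (columns, grouped XXsry, XX, XY-sry, XY-), as the difference from the gene's own mean. Replicates 2 and 3 of XY-sry are red in nearly every row, while XY- replicate 3 and the XX arrays are mostly blue.

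Read array by array, the median gene stood at -0.01, 0.07 and 0.01 log2 units from its own 12-array mean in XXsry replicates 1 to 3, against -0.12, -0.06 and -0.10 in XX. In XY-sry the medians were 0.01, 0.14 and 0.17, against 0.01, 0.02 and -0.17 in XY-. The XXsry arrays all lay above the XX arrays, whereas XY-sry replicate 1 lay among the XY- arrays. In XY-sry replicates 1 to 3, 24, 47 and 46 of the 47 genes stood above their own mean, against 31, 26 and 3 in XY-. The XXsry arrays had 20, 38 and 29 such genes, against 1, 9 and 3 in XX. Over all tested probe sets the share above their own mean was 57.6%, 49.9% and 60.6% in XY-sry, against 49.5%, 31.7% and 51.1% in XY-. It was 55.2%, 48.6% and 52% in XXsry, against 54.2%, 49.4% and 53% in XX. The median difference of all tested probe sets from their own mean was lowest on XY- replicate 2, at -0.07. XY-sry replicate 3 held the highest value of 25 genes, and XY- replicate 3 the lowest value of 25 genes.

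**Figure D3:**
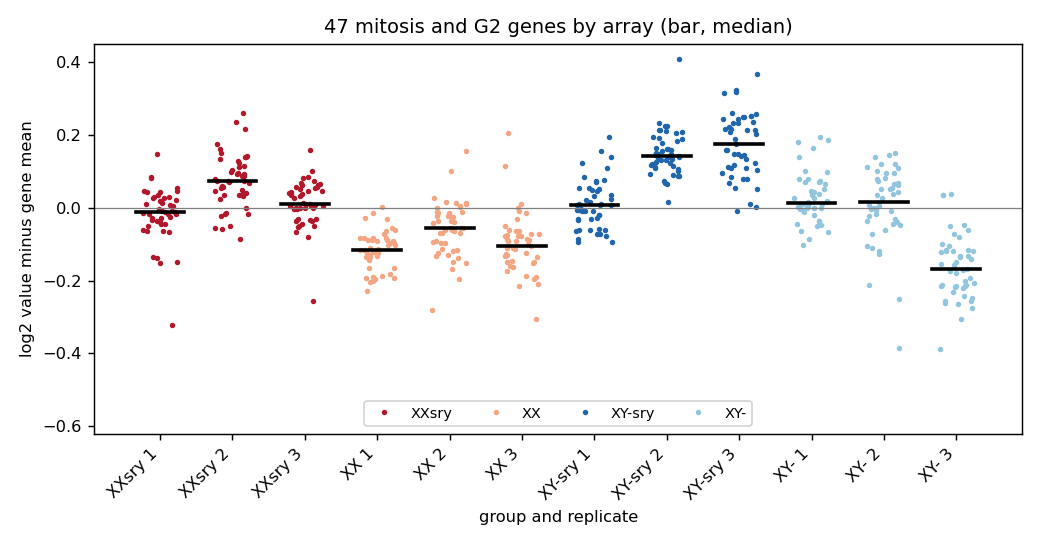
Each point is 1 of the 47 genes on 1 array, as log2 value minus the gene's mean over 12 arrays, and the bar is the median of the array. The 3 XXsry medians lie above the 3 XX medians, while XY-sry replicate 1 and XY- replicates 1 and 2 lie at about the same height.

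By group means, XY-sry was the highest group for 42 of the 47 genes and XXsry for 4. XX was the lowest group for 36 genes, XY- for 8 and XXsry for 2. The share of all probe sets with each order was not counted. Of all tested probe sets, 62.3% lay above 0 for XY-sry minus XY- and 49.1% for XXsry minus XX. For XXsry minus XY-sry 43% lay above 0, and for XX minus XY- 60.6%. Both Sry effects, which share no arrays, were above 0 for 45 of 47 genes (95.7%), against 34.6% of all tested probe sets.

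Within XX, no gene passed the threshold (0 of 47 with limma, beside 0.391% of all probe sets called higher and 0.351% called lower). The median difference between XXsry and XX was 0.13, against 0.00 over all tested probe sets, and 45 genes lay above 0 (49.1% of all probe sets did). At an unadjusted p under 0.05, 12 genes were higher (25.5%), against 6.04% of all probe sets, and none was lower, against 6.11%. For 25 genes (53.2%) every XXsry array lay above every XX array, against 10.8% of all probe sets. The smallest adjusted p was 0.225, for Kif11, the motor that pushes spindle poles apart, at 0.21 ± 0.069 (standard error). Condensin's Smc4 (-0.08) and the phosphatase Cdc25b (-0.04) were the genes below 0. With array weights 4 genes passed, Ccnb2, Mad2l1, Kif11 and Racgap1, beside 7.36% of all probe sets called in either direction.

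Within XY-, Foxm1, Spc25 and Melk rose with Sry, at an adjusted p under 0.05. That is 6.38% of the 47 genes, beside 4.27% of all probe sets called higher, and none was called lower, beside 4.37%. All 47 genes lay above 0 (62.3% of all probe sets did), with differences of 0.02 to 0.44 and a median of 0.16, a 1.11-fold level, against 0.04 over all probe sets. At an unadjusted p under 0.05, 19 were higher (40.4%), against 16.9% of all probe sets, and none was lower, against 9.26%. Arrays of XY-sry all lay above those of XY- for 7 genes (14.9%), a share below that of all probe sets (18%). The spread within groups was larger here: the median standard deviation of the genes was 0.0945 in XY-sry and 0.126 in XY-, against 0.0551 in XXsry and 0.0625 in XX. Over all tested probe sets that median was 0.0751 in XY-sry and 0.104 in XY-, against 0.0737 in XXsry and 0.0721 in XX. The 3' minus 5' difference of the actin control probe sets, a sign of RNA integrity, was 0.74 to 0.83 in XY-sry and 0.51 to 0.69 in XY-, without overlap. In XXsry it was 0.71 to 0.76, and in XX 0.66 to 0.77, with overlap. With this difference as a covariate the median of the mitotic genes in XY- was 0.27 (43 of 47 above 0), none passed, and 0.301% of all probe sets were called, against 8.64% without it. In the average over complements the covariate gave a median of 0.18 and 7 genes called, beside 4.83% of all probe sets. Fitted on the 6 arrays of XY-sry and XY- alone, the median stayed at 0.16 with all 47 above 0, none passed, and 0.402% of all probe sets were called. Array weights gave a median of 0.09, with 38 above 0. The median was 0.09 without XY- replicate 3 (0.085 before rounding, 41 above 0), and 1 gene was then called, as without XXsry replicate 3, XY-sry replicate 2 or XY-sry replicate 3 (8.12%, 6.67%, 7.76% and 3.01% of all probe sets, in that order).

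**Figure D4:**
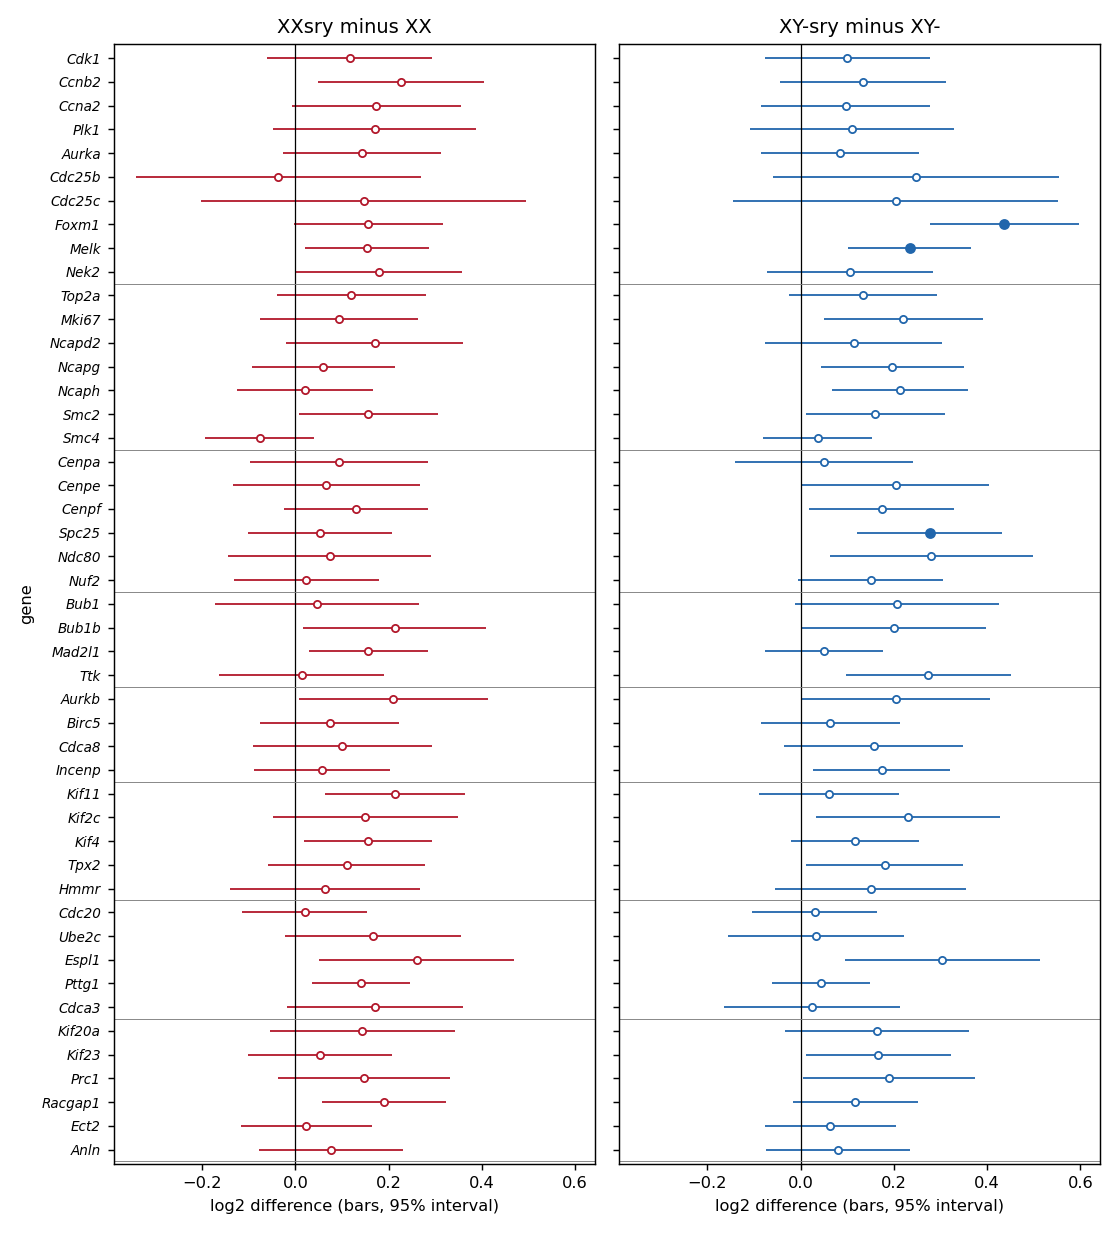
Log2 difference of each of the 47 genes for XXsry minus XX (left) and XY-sry minus XY- (right), with 95% intervals from limma, in the order of the roles, which lines separate. Filled points passed the threshold over all tested probe sets: Foxm1, Melk and Spc25 on the right, none on the left. Nearly all points lie to the right of 0 in both panels.

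Among the 10 measured genes of mitotic entry, kinases, cyclins, phosphatases and their regulators, 2 rose in the average over complements and the median difference was 0.14. Foxm1, the forkhead factor that turns on late cell cycle genes, had log2 values of 7.07, 6.90 and 6.96 in XXsry, against 6.81, 6.90 and 6.75 in XX. In XY-sry it had 7.08, 7.13 and 7.29, against 6.82, 6.71 and 6.66 in XY-. All XY-sry arrays lay above all XY- arrays, and XXsry and XX met at 6.90. Its Sry effect was 0.44 ± 0.073 in XY- (1.35-fold, adjusted p = 0.00725), 0.16 ± 0.073 in XX (adjusted p = 0.42) and 0.30 ± 0.052 in the average (adjusted p = 0.00815). Foxm1 was read by 2 further probe sets that passed the filter, which differed by 0.28 (adjusted p = 0.0284) and 0.21 (adjusted p = 0.149) in the average. Within XY- these 2 differed by 0.28 (adjusted p = 0.0758) and 0.29 (adjusted p = 0.15), and neither passed.

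Melk, a kinase abundant in dividing cells, had 7.11, 7.17 and 7.16 in XXsry, against 7.07, 7.00 and 6.91 in XX. The XY-sry arrays gave 7.22, 7.29 and 7.21, against 7.11, 6.97 and 6.94 in XY-. The arrays with Sry lay above those without it in each complement. The difference was 0.23 ± 0.061 in XY- (adjusted p = 0.0366), 0.15 ± 0.061 in XX (adjusted p = 0.339) and 0.19 ± 0.043 in the average (adjusted p = 0.0244).

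Cdk1, the kinase at the centre of mitotic entry, had 9.25, 9.28 and 9.23 in XXsry, against 9.11, 9.22 and 9.08 in XX. Its XY-sry values were 9.21, 9.35 and 9.39, against 9.27, 9.35 and 9.03 in XY-. The XXsry arrays just cleared the XX arrays, and the XY groups overlapped. Its average difference, 0.11 ± 0.057, did not pass (adjusted p = 0.266). Plk1, the Polo kinase, had 8.23, 8.32 and 8.22 in XXsry, against 8.09, 8.17 and 8.00 in XX, and 8.13, 8.31 and 8.46 in XY-sry, against 8.22, 8.36 and 7.99 in XY-. It showed the same layout, without overlap in XX and with overlap in XY-, and its average difference was 0.14 ± 0.070 (adjusted p = 0.242). The B-type cyclin Ccnb2, whose promoter is shown above, differed by 0.18 in the average (adjusted p = 0.0817).

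The 7 genes of chromosome structure had a median average difference of 0.13, and none passed. Mki67, the Ki-67 protein that coats mitotic chromosomes, had 10.92, 10.90 and 10.85 in XXsry, against 10.77, 10.83 and 10.79 in XX. The values in XY-sry were 11.04, 11.01 and 11.15, against 10.85, 11.02 and 10.67 in XY-. All XXsry arrays lay above all XX arrays, and in the XY groups XY- replicate 2 overlapped. Its average difference was 0.16 ± 0.055 (adjusted p = 0.108). Top2a, the topoisomerase that untangles sister chromatids, had 10.99, 11.00 and 10.93 in XXsry, against 10.84, 10.87 and 10.85 in XX. In XY-sry the values were 10.97, 11.10 and 11.15, against 10.97, 11.07 and 10.78 in XY-. XXsry and XX again did not overlap, XY-sry and XY- did, and the average difference was 0.13 ± 0.052 (adjusted p = 0.155). Smc4, a condensin subunit, was the one gene of the 47 below 0 in the average, at -0.02 (adjusted p = 0.793), and its other probe sets past the filter differed by -0.31 (adjusted p = 0.125) and -0.05 (adjusted p = 0.444).

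The 6 genes of the centromere and kinetochore had a median average difference of 0.14. Spc25, a subunit of the Ndc80 complex that holds microtubules, had 8.70, 8.86 and 8.73 in XXsry, against 8.67, 8.77 and 8.69 in XX. XY-sry arrays read 8.84, 8.95 and 9.02, against 8.77, 8.65 and 8.56 in XY-. The XX pair overlapped and the XY pair did not. It rose by 0.28 ± 0.071 in XY- (adjusted p = 0.0345), while the values were 0.05 ± 0.071 in XX (adjusted p = 0.81) and 0.17 ± 0.050 in the average (adjusted p = 0.0709).

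None of the 4 spindle checkpoint genes passed, with a median average difference of 0.14. Ttk, the kinase that starts the checkpoint, had 6.94, 6.90 and 6.87 in XXsry, against 6.86, 7.05 and 6.76 in XX. Its level in XY-sry was 7.06, 7.16 and 7.20, against 6.96, 6.91 and 6.73 in XY-. The XXsry values lay inside the range of XX, whereas all XY-sry values lay above XY-. Its difference was 0.27 ± 0.081 in XY- (adjusted p = 0.0569) and 0.01 ± 0.081 in XX (adjusted p = 0.968). A further probe set of the checkpoint kinase Bub1b differed by 0.22 in the average (adjusted p = 0.0487), beside 0.21 for the one chosen (adjusted p = 0.0737).

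None of the 4 genes of the chromosomal passenger complex (Aurkb, Birc5, Cdca8 and Incenp), which corrects faulty attachments, passed in the average, with differences of 0.07 to 0.21. A second probe set of Incenp, the scaffold of that complex, did pass at 0.19 (0.185 before rounding, adjusted p = 0.0305), beside 0.12 for the one chosen (0.115 before rounding, adjusted p = 0.159). Among all 34 further probe sets past the filter, for 23 of the genes, 30 lay above 0 in the average and 3 passed.

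The 5 spindle motors and microtubule proteins had a median average difference of 0.14, and none passed. Kif4, an X-linked motor that compacts chromosomes and shapes the central spindle, had 7.39, 7.51 and 7.41 in XXsry, against 7.30, 7.23 and 7.31 in XX. In XY-sry it stood at 7.39, 7.47 and 7.53, against 7.38, 7.42 and 7.24 in XY-. The XX pair did not overlap and the XY pair did. Its average difference was 0.14 ± 0.044 (adjusted p = 0.0860), and its complement effect was -0.05 ± 0.044 (adjusted p = 0.998).

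Of the 5 genes of anaphase and mitotic exit, 1 rose, and the median was 0.10. Espl1, the protease separase that cuts cohesin between sister chromatids, had 7.94, 8.12 and 7.99 in XXsry, against 7.80, 7.83 and 7.64 in XX. Its XY-sry arrays gave 8.03, 8.17 and 8.26, against 7.95, 7.96 and 7.64 in XY-. The arrays with Sry lay above those without it in each complement. Its difference was 0.28 ± 0.068 in the average (1.22-fold, adjusted p = 0.0320), 0.26 ± 0.096 in XX (adjusted p = 0.297) and 0.30 ± 0.096 in XY- (adjusted p = 0.0694). Cdc20, the activator of the anaphase-promoting complex, differed by 0.03 (0.025 before rounding), the smallest positive value of the 47 genes in the average (adjusted p = 0.773).

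The 6 genes of the central spindle and cytokinesis had a median of 0.13, and none passed. Racgap1, part of the centralspindlin complex that places the cleavage furrow, had 8.39, 8.55 and 8.50 in XXsry, against 8.29, 8.27 and 8.31 in XX. XY-sry values were 8.38, 8.53 and 8.51, against 8.40, 8.39 and 8.28 in XY-. The XX pair did not overlap, and XY-sry replicate 1 lay inside the XY- range. Its average difference was 0.15 ± 0.043 (adjusted p = 0.0567).

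**Figure D5:**
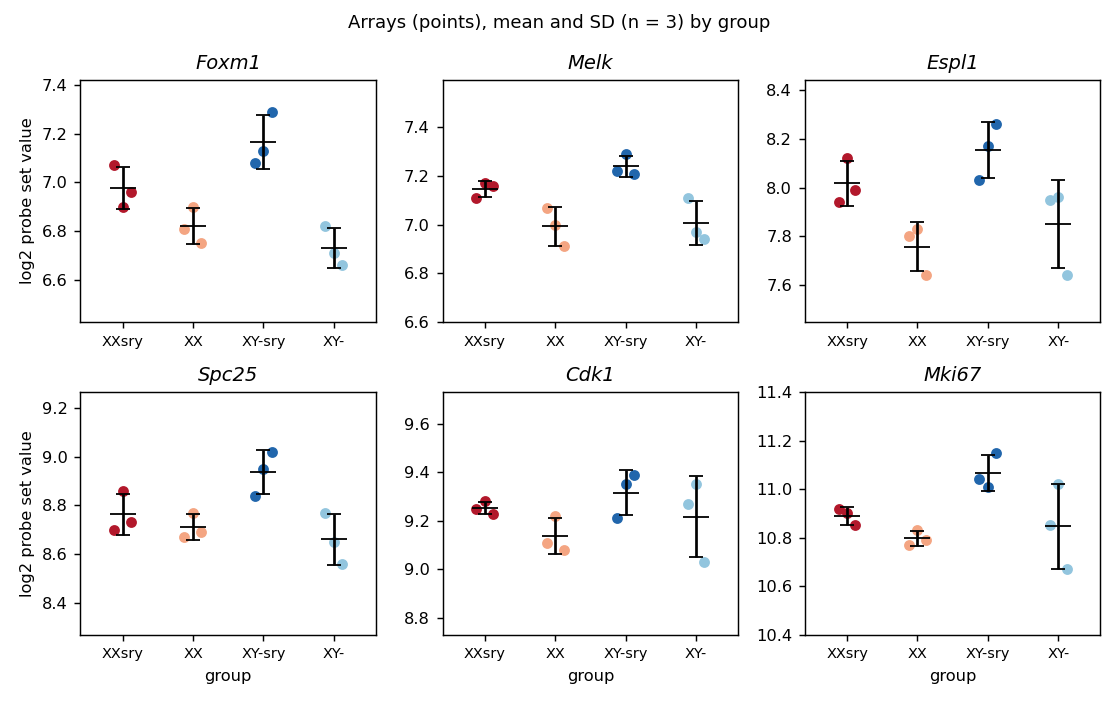
Log2 values of 6 of the genes on each array, by group (XXsry, XX, XY-sry, XY-), with the group mean and standard deviation (n = 3) as bars. Foxm1, Melk, Espl1 and Spc25 show XY-sry above XY- without overlap, whereas Cdk1 and Mki67 overlap in the XY groups.

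The test of the difference between the Sry effects in XY- and XX passed for none of the 47 genes (beside 0.268% of all probe sets called higher and 1.03% lower). At an unadjusted p under 0.05, 3 genes had the larger Sry effect in XY- (6.38%, against 7.65% of all probe sets): Foxm1 by 0.28 (adjusted p = 0.254), Ttk by 0.26 (adjusted p = 0.352) and Spc25 by 0.22 (adjusted p = 0.362). None had the larger effect in XX at that level (5.71% of all probe sets did). The median was 0.04, as over all tested probe sets, and 29 genes lay above 0 and 18 below, where 62% of all probe sets lay above. That sign was not stable: the median was -0.02 without XY- replicate 3 (18 above 0), -0.01 without XY-sry replicate 3 (19 above 0) and -0.04 under array weights, whereas the actin covariate gave 0.13.

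The sex chromosome complement gave no gene past the threshold, except that array weights gave 5 lower in XX than in XY- (beside 8.24% of all probe sets in either direction). Between XX and XY-, 36 genes lay below 0 and 10 above (60.6% of all probe sets lay above), with a median of -0.05 against 0.03 over all probe sets, and 0 passed (beside 0.0558% of all called higher and 0.0223% lower). At an unadjusted p under 0.05 only Kif11 was lower, at -0.20 (adjusted p = 0.343), 2.13% of the genes against 3.9% of all probe sets, and none was higher, against 6.7%. The XX arrays lay below all XY- arrays for 3 genes (6.38%, against 4.55% of all probe sets). With the actin covariate the median was 0.01, with 26 of 47 above 0. It was -0.11 without XY- replicate 3 (-0.105 before rounding), -0.02 without XY- replicate 1 and -0.02 without XY- replicate 2. Between XXsry and XY-sry, 42 lay below 0 and 4 above (43% of all probe sets lay above), with a median of -0.08 against -0.01, and 0 passed (beside 0.106% higher and 0.0223% lower). There 7 genes were lower at an unadjusted p under 0.05 (14.9%, against 4.12%), of which Ttk had the smallest p, with -0.24 (adjusted p = 0.367), and none was higher, against 4.44%. All XXsry arrays lay below all XY-sry arrays for 9 genes (19.1%, against 7.43%). The median was -0.13 without XY-sry replicate 1, -0.05 without XY-sry replicate 2 and -0.05 without XY-sry replicate 3 (-0.0483 and -0.045 before rounding; 8 and 14 above 0).

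Averaged over Sry, all 47 genes lay below 0 in the XX complement against the XY- complement, where 54.7% of all probe sets lay above 0. The differences were small, with a median of -0.07 (-0.065 before rounding) and a lowest value of -0.15, and 0 passed (beside 0.0669% higher and 0.0223% lower). At an unadjusted p under 0.05, 2 genes were lower (4.26%, against 1.6% of all probe sets): Cenpf, a kinetochore protein, at -0.15 and Kif11 at -0.12, each with an adjusted p of 0.998. None was higher, against 2.65% of all probe sets. The median was -0.04 without XY- replicate 1, and 4 genes lay above 0 without XY- replicate 2.

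Other lists of the cell cycle were read the same way, for the Sry effect averaged over complements (3.95% of all probe sets called higher, 2.61% lower). Of 50 further G2 and mitosis genes, 5 rose, none fell, 45 lay above 0, and the median was 0.10. Cenpi, a centromere protein, rose by 0.25, Kntc1, a checkpoint protein, by 0.25, Cdca5 (sororin, which protects cohesion) by 0.21 and Dsn1, of the kinetochore, by 0.17 (0.165 before rounding; adjusted p = 0.0188, 0.0320, 0.0290 and 0.0340). In XX none of the 50 rose and 1 fell (0.391% and 0.351% of all probe sets), with 40 above 0 and a lowest value of -0.48. In XY- 7 rose and none fell (4.27% and 4.37%). In the difference between the Sry effects 1 was called higher (0.268% of all). In the average, 10 of 27 S phase and replication genes rose, none fell, and the median, 0.18, was above that of the mitotic genes. Chaf1b, a histone chaperone at the fork, rose by 0.29, Tk1, thymidine kinase, by 0.29, Lig1, the ligase of the lagging strand, by 0.24 and Mcm7, of the replicative helicase, by 0.17 (adjusted p = 0.0152, 0.0243, 0.0162 and 0.0247).

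Of 13 genes that hold back the cell cycle, not only at mitosis, 4 fell and 1 rose in the average, and the median was -0.09. Btg2, an antiproliferative protein, fell by 0.52, Gadd45b, a stress-induced gene, by 0.37, and the Cdk inhibitors Cdkn1b and Cdkn1a by 0.28 and 0.16 (adjusted p = 0.0140, 0.00608, 0.0492 and 0.0284). Chek2, a DNA damage checkpoint kinase, was the gene that rose, by 0.26 (0.255 before rounding, adjusted p = 0.0409). Within XX, 1 of the 13 fell (0.351% of all probe sets were called lower). Within XY-, 3 fell and 1 rose (4.37% and 4.27% of all), with a lowest difference of -1.01, for Btg2. The lowest in XX, -0.46, was of another gene. In the difference between the Sry effects 1 was called lower (1.03% of all), and the lowest value was -0.98, again for Btg2. The fall of Btg2 thus lay almost wholly in XY-. Of 14 MuvB, DREAM and NF-Y regulators, 1 rose in the average, the E2F partner Tfdp2, by 0.29 (adjusted p = 0.00685), and the median was 0.04. The lowest value was -0.35 in the average and -0.84 in XY-, for the same gene, and -0.16 in XX, for another. None of these falls passed. In XX 1 of the 14 rose (0.391% of all probe sets) and in XY- 1 (4.27%). Of 10 cohesin genes, 2 rose in the average, Pds5b by 0.31 and Smc1a by 0.14 (0.135 before rounding; adjusted p = 0.00719 and 0.0438), with a median of 0.05. None was called lower there. The lowest value in the average was -0.51, for the gene that was also lowest in XY-. Within XY-, 1 cohesin gene rose and 1 fell (4.27% and 4.37% of all probe sets), with differences down to -1.24, and none passed in XX. In the difference between the Sry effects 1 was called lower (1.03% of all), with a lowest value of -1.45. None of 14 subunits of the anaphase-promoting complex passed in the average, with a median of 0.06, and 1 rose in XY- (4.27% of all probe sets).

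Markers of thymic cell types moved with the same comparison, the average over complements unless stated (3.95% of all probe sets called higher, 2.61% lower). Of 7 measured genes of the pre-T cell receptor stage, 3 rose: Il2ra by 0.56, Notch1 by 0.31 and Notch3 by 0.31 (adjusted p = 0.00656, 0.0303 and 0.0289), and 7 lay above 0. None of the 7 passed in XX, and 2 rose in XY- (4.27% of all probe sets). Of 4 measured mature T cell markers, 3 fell: Il7r by 0.52, Ccr7 by 0.33 and Klf2 by 0.21 (adjusted p = 0.00466, 0.0287 and 0.0300). Of the same 4, 1 fell in XX and 2 in XY- (0.351% and 4.37% of all probe sets). The mean log2 value of these 4 markers was 6.99 to 7.04 per array in XXsry, against 7.28 to 7.33 in XX (7.325 before rounding), and 6.86 to 7.03 in XY-sry, against 7.20 to 7.48 in XY-, without overlap in either complement. Of 3 B cell markers 1 fell, Ms4a1 by 0.59 (adjusted p = 0.0210), and the list's mean was 5.36 to 5.77 in XXsry, against 5.77 to 5.84 in XX, and 5.32 to 5.39 in XY-sry, against 5.62 to 5.81 in XY-. Of 7 thymocyte markers 1 fell, Rag2 by 0.19 (adjusted p = 0.0222). Of the 3 fibroblast markers tested, Dcn rose by 0.40 (adjusted p = 0.00752). It passed in XX, at 0.62, and not in XY-, at 0.19. In the average it was the only 1 of the 3 above 0, and their median was -0.07 (-0.065 before rounding). The 3 myeloid markers tested had the largest median difference of the marker lists, -1.33, and none passed: S100a8 differed by -1.33 ± 0.38, S100a9 by -1.40 ± 0.45 and Lyz2 by -0.15 ± 0.073 (-0.145 before rounding; adjusted p = 0.0597, 0.0834 and 0.243). The mean of the whole myeloid list also took in Itgam, which lay below the filter (mean log2 2.81). That mean over 4 genes was 6.0025 to 7.13 in XXsry, against 6.99 to 7.58 in XX (6.985 before rounding). It was 6.24 to 7.14 in XY-sry, against 7.05 to 7.88 in XY-, with overlap in both complements. None of 4 thymic epithelium and 2 fat markers tested passed, and no red cell marker passed the filter. The part of these cell types in the mitotic genes' differences was not tested.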

How the data were processed

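Thymus RNA was measured on 12 arrays. The authors deposited RMA summaries on the log2 scale, a method that the submitters' processing notes name without a version. RMA quantile normalization brings the overall distributions of the arrays close together, so a biological shift of all genes cannot be seen. The distributions were not identical. The median log2 value over all probe sets was 4.10 on XY- replicate 2 and 4.02 to 4.06 on the other arrays.

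The array has 45101 probe sets; after removal of 64 controls, the 17925 whose log2 values averaged 5 or more were tested. Genes were named from the platform table, using probe sets with 1 gene symbol. The 4 group means were fitted to all 12 arrays with limma 3.58.1 in R 4.3.3 (lmFit, contrasts.fit, eBayes), for 7 contrasts, two-sided, with Benjamini-Hochberg adjustment over all tested probe sets and a threshold of 0.05. Errors after ± are standard errors. The number of arrays limits the precision. The fit was tested on simulated data. Figures used matplotlib 3.10.9.

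The genes, lists and comparisons were chosen with earlier results of these data known. Values on every array are given for genes past the threshold in any contrast, filled to 6 by smallest p, and for Cdk1, Plk1, Top2a, Mki67 and Kif4. Up to 4 genes of each other list are named by smallest p. Other named genes were chosen after their values were seen. Alternatives were other filters, scalings, variance models, array weights, a replicate block, other probe set rules, another threshold, the actin covariate, only the groups compared and each array left out.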

Additional observations from a re-analysis of the deposited data

How the results depend on the processing

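In the Sry effect averaged over complements, 3 of 47 mitotic genes passed, beside 6.56% of all probe sets in either direction. The number was 12 at an adjusted p under 0.1 (13.1% of all), 1 with no filter (1.54%), 9 with an intensity trend and robust settings (7.9%), 17 with array weights (24.3%), 5 with the mean over each gene's probe sets (9.39%) and 7 with the actin covariate (4.83%). Leaving out 1 array gave 1 to 8: 1 without XX replicate 3, XXsry replicate 2 or XXsry replicate 3, 5 without XY-sry replicate 1 and 8 without XY- replicate 2 (9.73% of all). In the Sry effect in XY-, 3 passed, beside 8.64% of all. The number was 6 at an adjusted p under 0.1 (15.5%), 1 with no filter (2.77%), 1 with each array centred on its median (8.31%), 7 with the trend (10.2%), 5 with array weights (23.7%) and 5 with the mean over probe sets (9.39%). It was 0 with the actin covariate (0.301%; median difference 0.27) and 0 with only the groups compared (0.402%; median 0.16, all 47 above 0). Leaving out 1 array gave 1 to 4, with 1 without XY-sry replicate 2, XY-sry replicate 3, XXsry replicate 3 or XY- replicate 3, and medians of 0.09 to 0.22. In XX, where 0 passed, array weights gave 4 (Ccnb2, Mad2l1, Kif11 and Racgap1; 7.36% of all), and in the complement effect without Sry, where 0 passed, array weights gave 5 lower (Ccnb2, Cenpa, Kif11, Ube2c and Cdca3; 8.24% of all). The cause was not tested, except that no filter adds tests. The other 3 contrasts gave 0 in each alternative run.

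Foxm1 passed in 23 of 23 alternatives in the average (adjusted p 0.00213 to 0.0287) and in 22 of 24 in XY- (0.00165 to 0.0834). Melk passed in 18 and Espl1 in 16 of 23 in the average (highest adjusted p 0.0760 and 0.0777). In XY-, Spc25 passed in 13 and Melk in 10 of 24 (highest 0.184 and 0.227). No called difference changed sign. With the replicate number as a block, the same genes passed, 3 in the average and 3 in XY-, and 0 in each other contrast. Same-numbered arrays correlated at -0.0827 to 0.306 in their deviations from the group means, over 0.1 in 8 of 18 pairs, against 4 of 36 differently numbered pairs. No label ties the numbers to a shared batch, and the main fit did not take them to pair the samples. These correlations do not settle whether the numbers mark a batch. With 3 arrays a group, differences near the median of 0.14 are about the size of the 95% interval's reach in the average (median 0.120 on either side) and smaller than it in the difference between the Sry effects (0.240).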
